A study of Homo sapiens with 34 samples.

Results

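The first 90 min of a uridine chase were examined in hTERT-RPE1, a human retinal pigment epithelial line immortalised with telomerase, whose RNA had been labelled with 4-thiouridine (s4U). All libraries collected at 0, 10, 20, 45 and 90 min of chase were taken, with the unlabelled library of each time course as background, which gave 18 of the 34 libraries of the series (14 labelled and 4 unlabelled). Both lines carried doxycycline-inducible constructs. Each line induced, as the methods describe, an shRNA that targets CCND1 (cyclin D1) in its 3′ UTR, and the line labelled overexpression added a FLAG-tagged CCND1 allele that the shRNA spares, while the line labelled knockdown did not. The lines were made by lentiviral transduction and were polyclonal. Cells of every group received 0.5 µg/mL doxycycline, from day 4 of induction 10 µM s4U for 24 h with a change of medium every 3 h, then 2 washes and medium with 1 mM uridine. The unlabelled background came from cells given plain uridine during the pulse and harvested at 0 min. Overexpression replicate 1 was sampled at 0, 20 and 90 min, overexpression replicate 2 at 0, 10, 20 and 45 min, knockdown replicate 1 at 0 and 45 min, and knockdown replicate 2 at all 5 times. Each line and replicate number is called a course here, and whether courses came from separate cultures is not stated, so p-values measure the spread between these libraries. The change of medium and the time of chase cannot be told apart, since no cells were given fresh medium without the start of the chase.

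Pulse and chase of s4U reads RNA turnover from sequence. s4U enters RNA in place of uridine, is alkylated after extraction and is then read as C. The share of T positions read as C (the T>C rate) thus follows the label of a message. It is a rate per T base and not the share of copies that are labelled. After the chase begins, the T>C rate of a message falls when labelled copies are degraded and also when unlabelled new copies dilute them, and it rises where new copies still take up s4U left in the cell. Immediate early messages, such as those of FOS, EGR1, JUN and DUSP1, are induced by growth factors within minutes and are degraded fast, many of them through AU-rich elements in the 3′ UTR that bind decay factors of the ZFP36 family. Messages of ribosomal proteins, glycolytic enzymes and vimentin are known as long-lived.

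Each library held 14712332 to 44480703 reads in 3′ UTRs, and reads carried no molecular identifiers, so the Wilson 95% intervals of rates cover counting error only. Summed over 3′ UTRs, the T>C rate was 0.0174%, 0.0275%, 0.0192% and 0.0295% in the 4 unlabelled libraries and 0.870% to 0.974% at 0 min. Read levels of the unlabelled libraries of overexpression replicate 1 (r = 0.897 with the rest of its line) and knockdown replicate 1 (r = 0.858) stood apart, as did, less far, the labelled libraries of overexpression replicate 1 at 20 min (r = 0.965) and knockdown replicate 2 at 10 min (r = 0.977). Counts of calls without these 2 labelled libraries are given beside the results where they change them. Native CCND1 3′ UTR reads were at 31.1 to 45.5 CPM (reads relative to all mapped reads of a library, on the usual CPM scale) in the libraries labelled overexpression and at 58.2 to 130 CPM in those labelled knockdown. They go against the label's direction, and since the added allele is spared by an shRNA against this 3′ UTR they are no measure of it. Among markers, vimentin lay at 4467 to 6428 CPM and KRT18 at 181 to 452 CPM in the 14 labelled libraries. Of 6 measured pigment epithelium markers, 2 reached 1 CPM on average (MITF and OTX2), while TTR and the epithelial cadherin CDH1 were at 0. Markers of blood, endothelium and neurons stayed below 0.5 CPM.

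Of 9274 genes tested for label, 7 had a lower T>C rate at 45 and 90 min than at 0 min, which is 0.0755% of them, and none had a higher one (0%). All 7 hold the heptamer TATTTAT, the core of an AU-rich element, in the 3′ UTR interval with most of their reads. The windows below show 1 such element of each and of FOS, a message known for this element, on hg38 in the direction of the transcript, with every TATTTAT in capitals.
DUSP1, chr5:172768642-172768671, minus strand: gggctggtcctTATTTATttaacttcaccc
IER3, chr6:30743647-30743676, minus strand: aattaaTATTTATatgTATTTATgtacgtc
NFKBIA, chr14:35401698-35401727, minus strand: accacattttaTATTTATtgtgcttcgagt
KLF6, chr10:3778340-3778369, minus strand: tatgtttctctTATTTATgccttgaggact
JUN, chr1:58780818-58780847, minus strand: ttgcttatgaaTATTTATaacagcattctt
MCL1, chr1:150575806-150575835, minus strand: ccctctacagaTATTTATatcaattcctac
CYR61, chr1:85583559-85583588, plus strand: actgaatgtttTATTTATcaaaatgtagct
FOS, chr14:75282060-75282089, plus strand: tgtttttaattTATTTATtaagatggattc

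The number of copies differed among the 7 messages. IER3 held 4 in an interval of 903 bases, DUSP1 held 3 in 672 bases and MCL1 held 3 in 2824 bases. NFKBIA and CYR61 held 2 each, and KLF6 and JUN held 1 each. Searched on the transcript strand only, the heptamer was found in 37.2% of the intervals of all genes tested, and longer intervals hold it more often. Among intervals within 25% of the same length, 0.6% held as many copies as IER3, 1.1% as many as DUSP1, 3.1% as many as NFKBIA, 5.6% as many as CYR61 and 7.5% as many as MCL1. The single copies of JUN and KLF6 are common for their length, at 29.1% and 60.8% of like intervals. EGR1 and JUNB, which are described below, held none. A match of these letters is a description of the sequence and not a measured site.

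Over all 3′ UTR reads the label was nearly held for 90 min. After subtraction of the unlabelled rate, overexpression replicate 1 kept 91.9% of its 0 min rate at 20 min and 94.5% at 90 min. Overexpression replicate 2 stood at 100.1%, 98.0% and 99.6% at 10, 20 and 45 min, and knockdown replicate 1 at 96.4% at 45 min. Knockdown replicate 2 stood at 90.9%, 94.5%, 98.3% and 94.7% at 10, 20, 45 and 90 min. No course sampled at 10 or 20 min declined steadily, and in each of these the lowest library was at 10 or 20 min. Knockdown replicate 1, sampled at 0 and 45 min only, cannot show a course over time. The mean was 95.1% ± 3.93 (SD, n = 5) at 10 and 20 min and 96.7% ± 2.25 (SD, n = 5) at 45 and 90 min. The difference of 45 and 90 min from 0 min was not distinguishable from the spread between libraries (exact permutation test within courses, two-sided p = 0.125, where the smallest p the 24 arrangements allow is 0.0417). Libraries at 180 min, which are outside the period studied here, stood at 80.9% to 82.1% of 0 min, and those at 360 min at 47.9% to 57.2%.

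**Figure D1:**
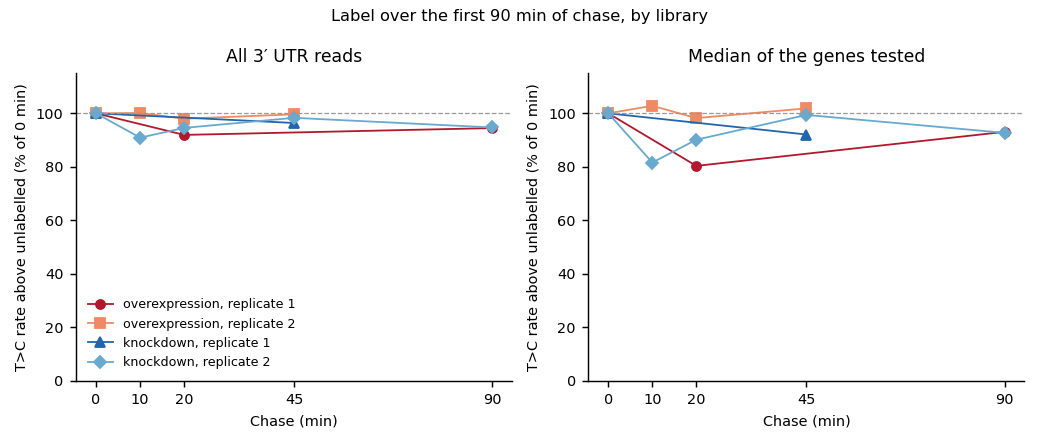
T>C rate above the unlabelled library, as per cent of the 0 min rate of the same course (y axis), by chase time in min (x axis) and course, for all 3′ UTR reads (left) and for the median of the genes tested (right). Over all reads every library lies between 90.9% and 100.1%, while the median gene drops to 80.3% and 81.6% in overexpression replicate 1 at 20 min and knockdown replicate 2 at 10 min.

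The median gene followed the reads in most libraries but not in the 2 that stood apart. It was at 80.3% of 0 min in overexpression replicate 1 at 20 min and at 81.6% in knockdown replicate 2 at 10 min, against 90.1% to 102.8% in the other 3 libraries at 10 and 20 min and 92.1% to 101.8% in the 5 libraries at 45 and 90 min. The median shift at 10 and 20 min was largest in messages of low level. The median fitted change was -0.53 on the log2 scale over 2168 genes at 1 to 10 CPM, -0.15 over 6000 genes at 10 to 100 CPM and -0.06 over 1106 genes at 100 CPM or more. The share of genes below 0 was alike in these classes, at 73.9%, 71.2% and 73.1%. No such order of medians was seen at 45 and 90 min, where the same classes had -0.06, -0.06 and -0.04. There the shares below 0 were 53.4%, 60.1% and 65.9%, highest in the class of highest level.

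The 7 messages with a lower T>C rate at 45 and 90 min encode feedback inhibitors, transcription factors and short-lived regulators. Rates are given at 0 min in the order overexpression replicates 1 and 2 and knockdown replicates 1 and 2, and then in overexpression replicate 1 at 90 min, overexpression replicate 2 at 45 min, knockdown replicate 1 at 45 min, and knockdown replicate 2 at 45 and 90 min. For NFKBIA, the inhibitor of NF-kB that NF-kB itself induces, the T>C rate was 1.06%, 1.10%, 0.841% and 1.06% at 0 min and 0.635%, 0.808%, 0.621%, 0.722% and 0.526% later. The later rates all lay below the 0 min rates, the lowest being those of the 90 min libraries and of knockdown replicate 1, whose 0 min rate was also the lowest. Relative to 0 min of its own course, the rate above background stood at 64.2% ± 10.3 (SD, n = 5). This per cent, given below for each message, is of the T>C rate and not of the amount of label. CYR61, a secreted matrix protein and YAP target, had 1.23%, 1.25%, 1.11% and 1.13% at 0 min and 0.732%, 1.02%, 0.919%, 0.928% and 0.712% later, at 73.2% ± 11.6 of 0 min. It was the most abundant of the 7 at 1085 CPM on average, and its groups did not overlap either. DUSP1, a phosphatase that turns off MAP kinases, had 1.21%, 1.24%, 1.19% and 0.944% at 0 min and 0.624%, 0.830%, 0.633%, 0.866% and 0.606% later, at 65.1% ± 16.2 of 0 min with no overlap.

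Transcription factors and regulators of survival behaved alike. KLF6, a zinc finger factor, had 1.20%, 1.13%, 1.05% and 1.16% at 0 min and 0.692%, 0.851%, 0.834%, 0.822% and 0.678% later, at 67.8% ± 9.87 (SD, n = 5) of 0 min. JUN, a subunit of AP-1, had 1.02%, 0.927%, 0.743% and 0.986% at 0 min and 0.488%, 0.719%, 0.733%, 0.694% and 0.558% later, at 69.8% ± 19.7 of 0 min. In knockdown replicate 1 its rate was nearly the same at 0 and 45 min, at 98.6% of 0 min, and this library set the upper end. IER3, an immediate early regulator of survival, had 1.12%, 1.13%, 0.998% and 0.909% at 0 min and 0.473%, 0.786%, 0.733%, 0.627% and 0.687% later, at 65.4% ± 13.8 of 0 min. MCL1, an anti-apoptotic BCL2 protein of rapid turnover, had 1.03%, 1.00%, 1.04% and 0.920% at 0 min and 0.609%, 0.940%, 0.649%, 0.749% and 0.555% later, at 70.7% ± 15.8 of 0 min. MCL1 was the only one of the 7 whose groups overlapped, through overexpression replicate 2 at 45 min. Here and below, overlap is read from the same values as the test and is no further support. The share of all genes without overlap is not given.

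All 7 were lower than at 0 min of the same course in 5 of 5 libraries. The rule for naming them required this, and the call rests on the same rates, so it is no further support. In edgeR's quasi-likelihood test with the course as block, the log2 changes were -0.67 (SE 0.12, adjusted p = 0.0101) for DUSP1, -0.66 (SE 0.12, adjusted p = 0.0157) for IER3 and -0.61 (SE 0.10, adjusted p = 0.00712) for NFKBIA. They were -0.56 (SE 0.10, adjusted p = 0.0157) for KLF6, -0.54 (SE 0.11, adjusted p = 0.0420) for JUN, -0.51 (SE 0.10, adjusted p = 0.0307) for MCL1 and -0.45 (SE 0.07, adjusted p = 0.00691) for CYR61. An unadjusted p under 0.05 was reached by 356 of the 9274 genes, 80 higher and 276 lower. That share is itself under 0.05, and the median change over all genes was -0.05. The calls leaned on the 90 min libraries and on single courses. Without the 90 min libraries only CYR61 was called, without overexpression replicate 1 none was, and without overexpression replicate 2 or knockdown replicate 2 there were 2 calls each, CYR61 with MCL1 and CYR61 with DUSP1. Relative to the median gene of each library no gene was called, nor by limma on the log2 rates, and the direction of all 7 was kept. Without the 2 labelled libraries that stood apart 13 genes were called, namely these 7 and EDN1, HMGA2, ID3, IL11, PLK2 and SGK1.

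**Figure D2:**
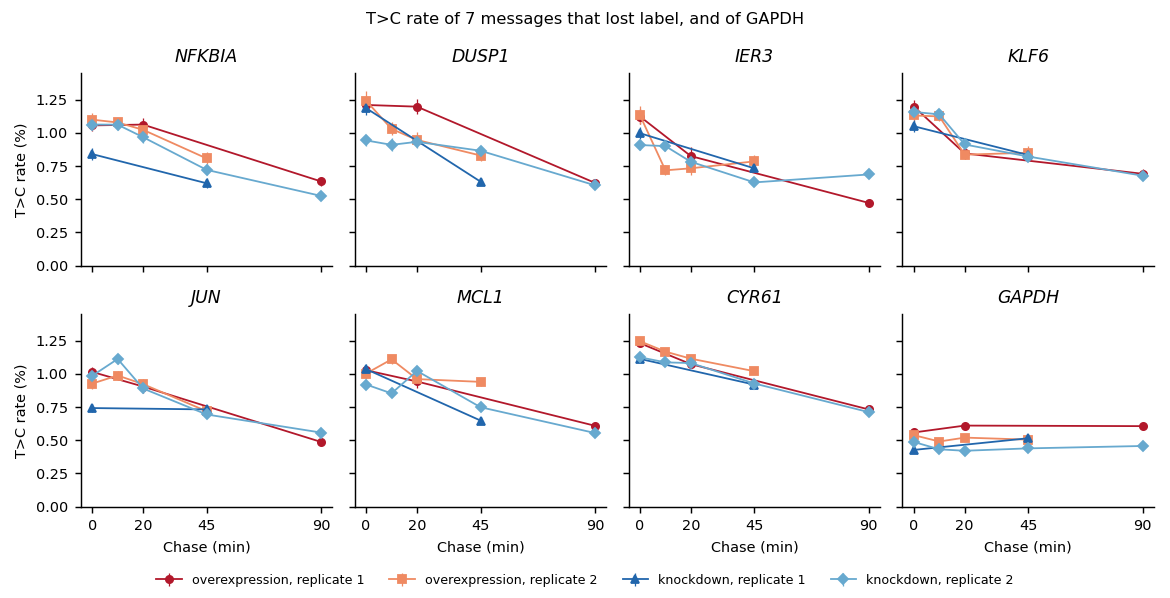
T>C rate in per cent (y axis) by chase time in min (x axis) for the 7 messages called lower at 45 and 90 min (NFKBIA, DUSP1, IER3, KLF6, JUN, MCL1 and CYR61) and for GAPDH, one line per course, with Wilson 95% intervals as bars. The rates of the 7 lie between 0.743% and 1.25% at 0 min and between 0.473% and 0.732% at 90 min, while GAPDH lies between 0.421% and 0.611% at all times.

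Of the 7 messages, IER3 and JUN also rose in read level at 45 and 90 min, and the other 5 did not pass the test for level. Read levels of NFKBIA were 183, 179, 114 and 119 CPM at 0 min and 168, 127, 114, 114 and 163 CPM later, a log2 change of -0.02 (adjusted p = 0.9996). CYR61 was at 0.07 (adjusted p = 0.9996). Their labelled amount, counted as conversions per 3′ UTR read without division by the T bases of the message, changed by -0.67 (adjusted p = 0.151) for NFKBIA and by -0.40 (adjusted p = 0.9995) for CYR61, about as their rates did. NFKBIA was the message with the smallest p among those whose labelled amount was lower. Read levels of DUSP1 were 96.9, 59.0, 94.1 and 86.3 CPM at 0 min and 162, 131, 218, 195 and 312 CPM later, without overlap (log2 change 1.29, adjusted p = 0.0667). The labelled amount of DUSP1 was 0.61 higher on the log2 scale, which was not called (adjusted p = 0.9995). IER3 rose in read level by 0.71 (adjusted p = 0.00154) and JUN by 0.61 (adjusted p = 0.0218), and their labelled amounts differed from 0 min by 0.03 and 0.07. KLF6 and MCL1 were 0.40 (adjusted p = 0.9996) and 0.50 (adjusted p = 0.155) higher in level and -0.16 and -0.03 changed in labelled amount. In none of the 7 messages were the share of rate lost by decay and the share lost by dilution with new copies separated.

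**Figure D3:**
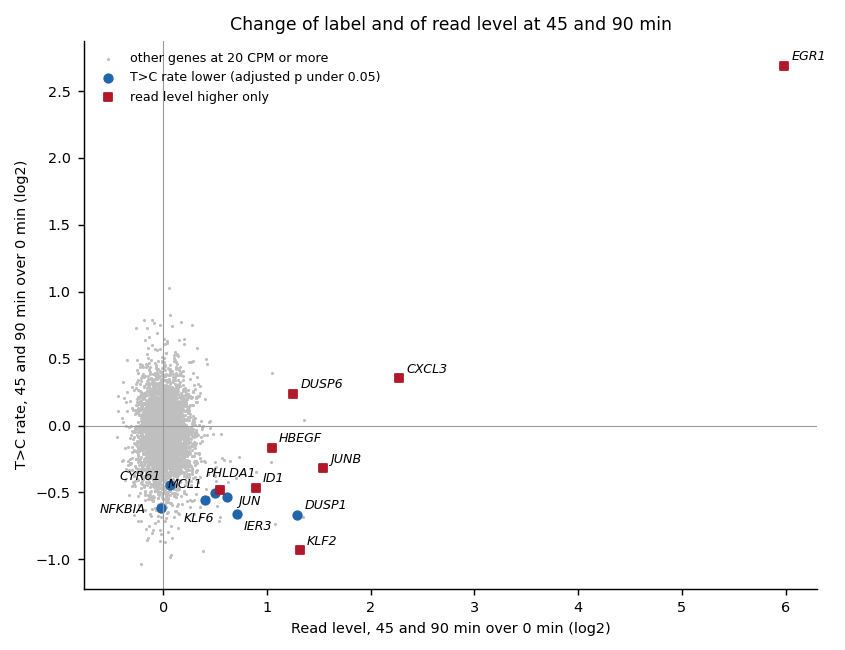
Log2 change of the T>C rate (y axis) against that of the read level (x axis) at 45 and 90 min over 0 min, for genes at 20 CPM or more and the called genes, one point per gene. Blue circles are the 7 messages called lower in T>C rate and red squares those called higher in read level only, with EGR1 alone at the upper right, at 5.99 in level and 2.69 in rate.

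EGR1, a zinc finger factor induced by serum within minutes, rose in read level by 45 and 90 min. It stood at 6.27, 4.30, 2.37 and 1.51 CPM at 0 min. At 45 and 90 min it stood at 102, 157, 285, 264 and 322 CPM, in the order of libraries used above. Every later library lay far above every 0 min library, between 16.2-fold and 213-fold over its own course, and the level at 0 min made up 0.470% to 6.17% of the later level. The read level rose by 5.99 on the log2 scale (SE 0.74, adjusted p = 0.0448).

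The T>C rate of EGR1 was higher along with its level. It was 0.236%, 0.0169%, 0.0260% and 0.0758% at 0 min, from 22, 1, 1 and 2 conversions, and 0.751%, 0.708%, 0.732%, 0.603% and 0.599% at 45 and 90 min, from 1036 to 3598 conversions. These later rates were 70.5% to 83.4% of the rate over all reads of the same library. In all 4 unlabelled libraries EGR1 had 0 conversions, which allows rates of up to 0.0368% to 0.437%, so that only part of the 0 min rates stands above what the background depth can show. At 10 and 20 min the rate was 1.19% and 0.810% in overexpression replicate 2, 0.481% in overexpression replicate 1 and 0.922% in knockdown replicate 2 at 20 min, but 0.0152% in knockdown replicate 2 at 10 min, where the level was 7.67 CPM. Although the rate was higher in 5 of 5 libraries at 45 and 90 min, the fit gave a log2 change of 2.69 with an SE of 1.03 and an adjusted p of 0.9995, so the gain was not called. It was called when counts were summed per course and window, without the 10 min libraries, and without the 2 libraries that stood apart. By 180 min the EGR1 rate was 0.274%, 0.335%, 0.241% and 0.385% in the 4 courses, below that at 45 or 90 min in each, at 28.4 to 62.7 CPM.

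The stretch around the EGR1 start in the RefSeq promoter table (GRCh38.p14) holds 2 CArG boxes, the element bound by serum response factor. At least 1 such box is found in 1.29% of 27305 promoters of that table. The window shows 1 of the 2 EGR1 boxes in capitals, on the plus strand, from 83 bases before the start.
EGR1 promoter, chr5:138465386-138465415: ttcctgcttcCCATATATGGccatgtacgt
Of 12 genes looked up, those with a called rise in level and FOS and FOSB, 11 were in the table, and EGR1 alone held the box within its 250 bases before and 50 bases after the start.

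FOS, the partner of JUN in AP-1, was too rare to be tested for label, having no read in knockdown replicate 2 at 10 min. Its read level was 1.07, 0.514, 0.538 and 0.347 CPM at 0 min and 9.21, 21.1, 26.5, 23.4 and 20.2 CPM at 45 and 90 min, without overlap, a log2 difference of 5.41 (adjusted p = 0.185). Of the 4 libraries at 0 min, that of overexpression replicate 2 held 3 FOS conversions in 535 covered T bases and the others held 0. At 45 and 90 min the rate was 0.883%, 0.471%, 0.580%, 0.672% and 0.624%, from 129 to 304 conversions, a range that overlaps that of EGR1. The labelled amount of FOS rose by 8.88 on the log2 scale (adjusted p = 1.8e-04), the only gene of 9288 called for labelled amount (0.0108%), a test added after the data were seen. Without knockdown replicate 2 FOS was not called, and the 1 gene called was EGR1. Since FOS was at 0 conversions in 3 of 4 libraries at 0 min, the fitted size depends on the prior count of the fit and is no bound. FOS met the filter of 10 conversions on average only through libraries after 0 min, so the filter and the call rest on the same values. EGR1 met it mainly through such libraries as well.

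NR4A1, ATF3, IL6 and FOSB, known as inducible messages, were chosen after their values were seen and averaged 7.87, 4.86, 4.91 and 7.74 CPM. Their 0 min rates rest on few conversions. At 45 and 90 min the rates were mostly above those at 0 min, and none of the genes was called for label. None passed for read level either, with log2 changes of 1.37 (adjusted p = 0.9996), 2.28 (adjusted p = 0.265), 2.12 (adjusted p = 0.159) and 4.08 (adjusted p = 0.0845). NR4A1, a nuclear receptor, had a T>C rate of 0.412%, 0.529%, 0.706% and 0.0824% at 0 min and 0.688%, 1.12%, 1.12%, 0.727% and 0.604% later (log2 change 1.29, SE 0.56, adjusted p = 0.9995). It was higher than at 0 min of its course in 5 of 5 libraries. ATF3, a stress-induced repressor, had 0.492%, 0%, 0% and 0.0211% at 0 min and 0.592%, 0.492%, 0.768%, 0.457% and 0.467% later. IL6, an inflammatory cytokine, had 0.100%, 0%, 0.0223% and 0.477% at 0 min and 0.662%, 0.581%, 0.128%, 0.570% and 0.663% later. FOSB had 0%, 0%, 0.572% and 0% at 0 min and 0.515%, 0.216%, 0.328%, 0.234% and 0.491% later. FOSB was lower than at 0 min in knockdown replicate 1, the only course with FOSB conversions at 0 min. FOSB was not tested for label, and ATF3 (3.14, SE 1.39) and IL6 (1.75, SE 0.95) both had an adjusted p of 0.9995.

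**Figure D4:**
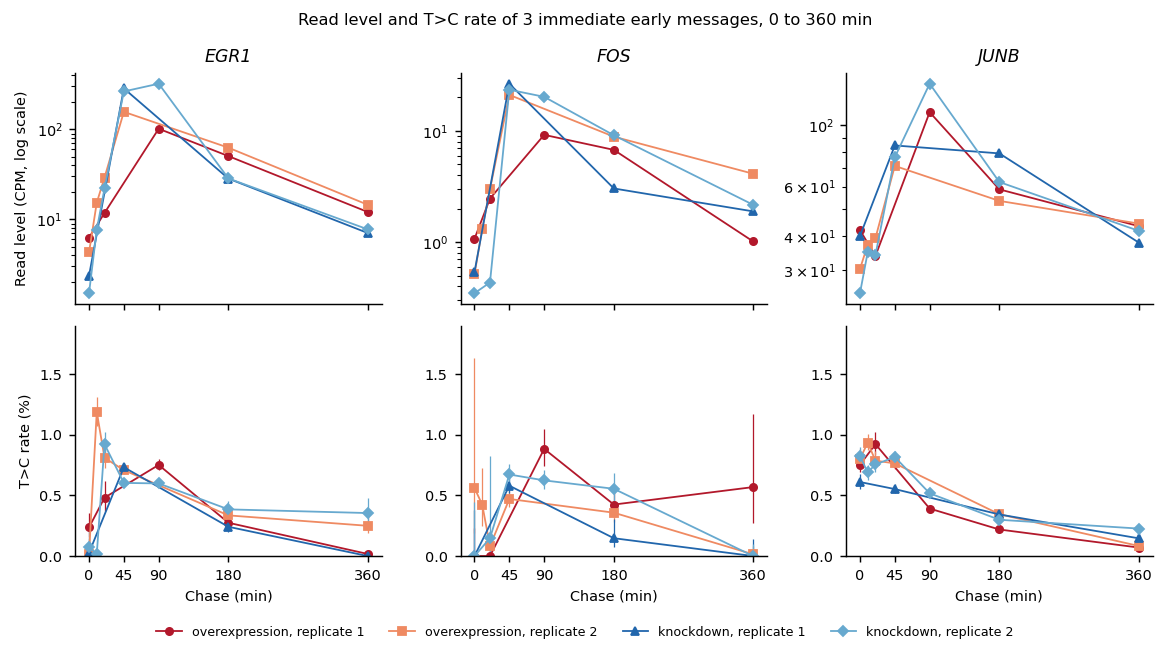
Read level in CPM on a log axis (top) and T>C rate in per cent (bottom) by chase time in min for EGR1, FOS and JUNB, 0 to 360 min, one line per course, with Wilson 95% intervals as bars on the rate. EGR1 goes from at most 6.27 CPM at 0 min to between 102 and 322 CPM at 45 and 90 min with a rate of 0.599% to 0.751%, while JUNB goes from at most 41.9 CPM to between 71.2 and 141 CPM.

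By 45 and 90 min 10 messages rose in read level, which is 0.0971% of 10301 tested, and none fell (451 had an unadjusted p under 0.05). Beside EGR1, IER3 and JUN these were CXCL3, a neutrophil attractant (2.28 on the log2 scale, adjusted p = 0.0456), JUNB, an AP-1 subunit (1.54, adjusted p = 0.00343), and KLF2 (1.32, adjusted p = 0.0456). Also called were DUSP6, the ERK phosphatase (1.25, adjusted p = 4.7e-04), HBEGF, an EGF receptor ligand (1.05, adjusted p = 0.00347), ID1, an inhibitor of helix-loop-helix factors (0.89, adjusted p = 0.00268), and PHLDA1 (0.55, adjusted p = 0.0448). Without overexpression replicate 2 or knockdown replicate 2 there were 6 and 4 calls, of which 5 and 2 were among the 10. Without the 2 libraries that stood apart there were 13, of which 7 were among the 10, and CXCL3 (adjusted p = 0.0511) and JUNB (adjusted p = 0.143) were not. The rise of EGR1 was not called without any 1 of the courses (adjusted p from 0.0503 to 0.468) or without the 2 libraries that stood apart (adjusted p = 0.0686). At 45 and 90 min over 10 and 20 min, 12 messages were called higher (0.116%), and at 10 and 20 min over 0 min none was (0%, 439 with an unadjusted p under 0.05). The comparisons against 0 min share the 0 min libraries.

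Apart from IER3 and JUN, none of the risen messages was called for label. Relative to 0 min of the same course, the rates of JUNB and KLF2 were lower in 5 of 5 libraries and those of HBEGF, ID1 and PHLDA1 in 4 of 5. JUNB had a T>C rate of 0.753%, 0.800%, 0.610% and 0.823% at 0 min and 0.391%, 0.764%, 0.552%, 0.816% and 0.517% later (log2 change -0.32, SE 0.18), so that its groups overlapped while its level went from 24.9 to 41.9 CPM to 71.2 to 141 CPM. Its labelled amount was 1.19 higher (adjusted p = 0.0598). HBEGF had 0.992%, 1.08%, 0.846% and 1.04% at 0 min and 0.757%, 0.957%, 0.844%, 1.05% and 0.868% later (-0.16, SE 0.15) at 1.64 to 3.29 times the level. In both messages the levels did not overlap between 0 min and later while the rates did. DUSP6 had 0.428%, 0.644%, 1.92% and 0.467% at 0 min and 0.732%, 1.12%, 1.01%, 0.483% and 0.626% later (0.24, SE 0.33), higher in 4 of 5 libraries. ID1 was at -0.46 (SE 0.14, adjusted p = 0.759), PHLDA1 at -0.48 (SE 0.15, adjusted p = 0.759), KLF2 at -0.93 (SE 0.33, adjusted p = 0.9995) and CXCL3 at 0.35 (SE 1.16, adjusted p = 0.9995).

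Several further short-lived messages had lower rates in every library at 45 and 90 min but missed the threshold. Others in this paragraph did not, with ZFP36 lower in 4 of 5 libraries and HES1 and CCND1 above 0 in the fit. Over all genes 59.2% lay below 0, and the share lower in every library is not given. EDN1, the precursor of the vasoconstrictor endothelin, had 1.10%, 1.26%, 1.08% and 0.950% at 0 min and 0.478%, 0.688%, 0.763%, 0.749% and 0.704% later (-0.74, SE 0.16, adjusted p = 0.0927), without overlap. MYC, a growth regulator, had 1.57%, 1.25%, 1.21% and 0.703% at 0 min and 0.437%, 0.712%, 0.794%, 0.642% and 0.552% later (-0.94, SE 0.27, adjusted p = 0.629). WEE1, a kinase that holds back mitosis, had 1.06%, 1.26%, 0.898% and 0.914% at 0 min and 0.315%, 0.805%, 0.687%, 0.819% and 0.344% later (-0.81, SE 0.25, adjusted p = 0.759). The 2 lowest WEE1 rates were those of the 90 min libraries. Read levels changed by 1.07 (EDN1), 0.38 (MYC) and -0.02 (WEE1) on the log2 scale, none of them called. The labelled amount of EDN1 was 0.33 higher, and those of MYC and WEE1 changed by -0.53 and -0.82. ID3 (-0.38, adjusted p = 0.114), PLK2 (-0.35, adjusted p = 0.138), HMGA2 (-0.41, adjusted p = 0.0916) and GADD45B (-0.42, adjusted p = 0.519) were lower in 5 of 5 libraries, with log2 changes in read level between -0.24 (PLK2) and 0.01 (HMGA2). CTGF, a YAP target next to CYR61 in function, was at -0.20 (SE 0.06, adjusted p = 0.537) and KLF10 at -0.42 (adjusted p = 0.9995). ZFP36 (-1.27, SE 0.66) and HES1 (0.29, SE 1.02) rested on 9.78 and 4.80 CPM on average and were too noisy to place. CCND1 had 0.607%, 0.824%, 0.699% and 0.747% at 0 min and 0.622%, 0.706%, 1.02%, 0.810% and 0.739% later (0.11, SE 0.17).

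Long-lived messages kept their label. VIM had 1.19%, 1.06%, 0.982% and 0.974% at 0 min and 1.18%, 1.07%, 1.01%, 0.919% and 0.966% later, at 99.4% ± 3.31 (SD, n = 5) of 0 min and a log2 change of -0.004 (SE 0.03). GAPDH, the glycolytic enzyme, was at 0.03 (SE 0.06), the fibronectin message FN1 at -0.04 (SE 0.04), LGALS1 at 0.02 (SE 0.08) and RPLP1 at -0.03 (SE 0.06), all with an adjusted p of 0.9995. Their standard errors were 0.03 to 0.08, smaller than the called changes. COL1A1 had 1.70%, 1.39%, 0.183% and 0.853% at 0 min and 1.07%, 1.20%, 1.18%, 0.752% and 0.751% later (0.20, SE 0.35), its 0 min rate in knockdown replicate 1 being far below the rest. ACTB and SRSF3, at 3.44 and 1.06 CPM in the intervals used, did not pass the label filter, and IER2 and EEF1A1 were not among the genes used.

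Members of 42 gene lists were counted against the 0.0755% of all genes called lower. Over all genes 59.2% lay below 0, with a median of -0.05. Of 18 tested members of an immediate early list, which holds transcription factors and IER3, 2 were called lower (JUN and IER3) and 11 lay below 0, with a median of -0.13. In level, 4 of its 23 tested members rose (JUN, JUNB, EGR1 and IER3), beside 0.0971% of all genes. Of 11 KLF factors 1 was called (KLF6) and 10 lay below 0, with a median of -0.42. Of 11 BCL2 family genes 1 was called (MCL1) and 10 lay below 0 (median -0.49), and of 24 YAP and SRF targets 1 was called (CYR61) and 21 lay below 0 (median -0.13). MAP kinase feedback inhibitors had 1 of 17 called (DUSP1, median -0.10) and NF-kB subunits and feedback genes 1 of 15 (NFKBIA, median -0.14). No member of another list was called for label.

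Among lists with no called member the median ranged widely. TGF-beta and BMP response regulators had 15 of 17 members below 0 and a median of -0.38, homeobox, SOX and FOX factors 17 of 21 and -0.25, and zinc finger (ZNF) genes 142 of 221 and -0.20 at a median of 8.07 CPM. p53 targets had a median of -0.18 over 20 members and secreted cytokines and growth factors -0.14 over 19. The housekeeping lists lay near 0. Ribosomal proteins of the cytosol had a median of -0.03 over 45 members, oxidative phosphorylation 0.005 over 75, glycolysis 0.01 over 14, proteasome subunits -0.03 over 29 and extracellular matrix -0.02 over 28. Mitosis genes, with 37 tested, were at -0.003. The lists differ in read level, as their median CPM from 8.07 (ZNF genes) to 832 (ribosomal proteins of the cytosol) shows, and the part of level in these medians was not tested.

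No gene passed for label at 10 and 20 min over 0 min in either direction (0%). The smallest adjusted p was 0.518, shared by several genes, EDN1 among them, and 658 genes had an unadjusted p under 0.05, 49 higher and 609 lower. The median change was -0.16, with 72.1% of genes below 0, and -0.08 without the 2 libraries that stood apart. Knockdown replicate 1 has no library in this window. Of the 7 messages, NFKBIA (-0.02), JUN (0.04) and MCL1 (-0.05) were at their 0 min rate, while IER3 (-0.39), KLF6 (-0.24) and DUSP1 (-0.20) were lower without passing. NFKBIA had 1.08% and 1.06% at 10 min and 1.06%, 1.02% and 0.968% at 20 min, all above its rates at 45 and 90 min. Between 10 and 20 min and 45 and 90 min 2 genes were called lower (0.0216% of genes), NFKBIA by -0.59 (adjusted p = 0.0200) and JUN by -0.58 (adjusted p = 0.0421), against a median of 0.10 over all genes. Neither was called without the 10, the 20 or the 90 min libraries, without either overexpression course or knockdown replicate 2, or without the 2 libraries that stood apart.

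The lines were compared for the change of label at 45 and 90 min. No gene passed in either direction (0%), and 230 of 9274 had an unadjusted p under 0.05, a share that is itself under 0.05. For the 7 messages the difference, knockdown minus overexpression, ran from -0.16 (SE 0.21) for MCL1 to 0.40 (SE 0.24) for IER3 on the log2 scale, each with an adjusted p of 0.9995. The standard errors of the 7 differences were 0.13 to 0.25, and a difference of the size seen for IER3 was not distinguishable from the spread between libraries.

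The early order of messages was set against their later loss, read from the 180 and 360 min libraries, which the early windows do not use. For each of 6870 genes, the label left was the rate above background at 360 min relative to 180 min, as the median of the courses. Over all of these genes the median was 52.6%. The 7 messages were below it, with 20.3% for DUSP1, 22.4% for NFKBIA and for MCL1 and 24.7% for KLF6. CYR61 stood at 25.8%, IER3 at 29.2% and JUN at 36.0%. The 7 lay between the 8.30th and the 27.8th percentile of all genes, JUN being the highest. Single courses spread widely, from 4.14% to 36.9% for DUSP1 and from 16.1% to 40.7% for MCL1. In quintiles of 1374 genes ordered by later loss, the fastest had a median early change of -0.13 with 68.6% of genes below 0, and the others followed with -0.08, -0.04, -0.03 and -0.02. Of the 7 messages 6 were in the fastest quintile and 1 (JUN) in the next. At 90 min the median gene of the fastest quintile stood at 85.8% and 86.4% of 0 min in the 2 libraries, and that of the slowest quintile at 98.0% and 96.4%. At 45 min the fastest quintile stood at 98.4%, 91.3% and 99.1%, and the slowest at 100.1%, 97.9% and 97.2%, so that among these libraries a lower rate of the fast messages was seen mainly in knockdown replicate 1. Across genes the rank correlation of early change and later label left was 0.14, a description over genes that share libraries and unlabelled backgrounds. TATTTAT was found in 47.2% of intervals of the fastest quintile and 43.6%, 39.4%, 33.3% and 21.0% of the next ones, whose median interval length went from 1846.5 to 828 bases in the same order.

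**Figure D5:**
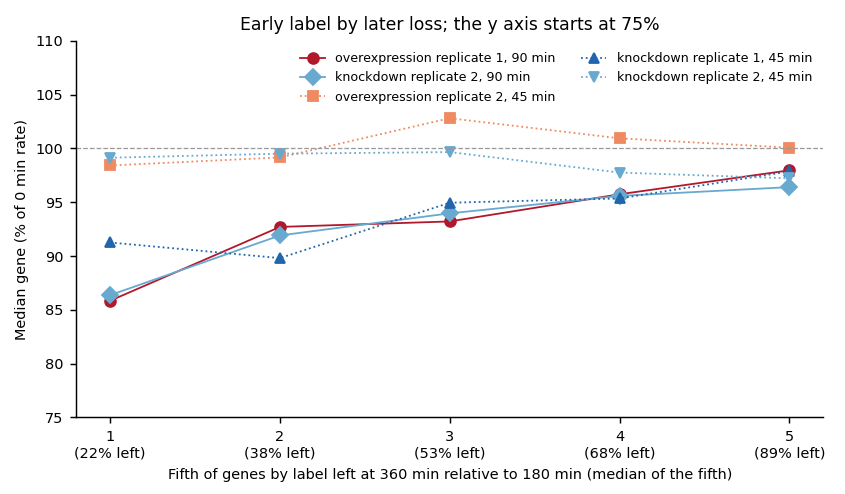
Median gene of each quintile as per cent of its 0 min rate (y axis, starting at 75%) in the 5 libraries at 45 and 90 min, with genes ordered into quintiles by label left at 360 min relative to 180 min (x axis, fastest loss at left). Both 90 min libraries climb from 85.8% and 86.4% in the fastest quintile to 98.0% and 96.4% in the slowest, and 2 of the 3 libraries at 45 min stay between 97.2% and 102.8%.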

How the data were processed

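For each annotated 3′ UTR interval the authors deposited raw counts of reads, multimapped reads, covered T bases and T>C conversions, made with SLAMdunk 0.4.3 on hg38 from QuantSeq libraries of 75 ng RNA read for 100 nt. The CPM the authors deposited is scaled to mapped reads, and the rate they deposited is a fraction, T>C conversions divided by T coverage. Which release of the 3′ UTR annotation was used is not stated in the labels or methods. Of 71668 intervals, 1168 naming several genes (2.58% of reads) and 7814 with over 10% multimapped reads (16.4%) were left out, leaving 17037 genes.

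Conversions were tested with edgeR 4.0.16 (quasi-likelihood, robust) in R 4.3.3, with log covered T bases as offset and the windows 0, 10 and 20, and 45 and 90 min. Tested genes had at least 1 CPM and 10 conversions on average, a rate at least 3 times the unlabelled one, and coverage in all 14 labelled libraries. Reads were tested with TMM scaling at 1 CPM or more. P-values were adjusted by Benjamini-Hochberg, threshold 0.05. DESeq2 1.42.0 and limma 3.58.1 (pseudocount 0.01%) served as alternatives. Scripts were tested on simulated data. Per cent of 0 min is after subtraction of the unlabelled rate of the course. Later loss needed 20 conversions at 180 min. The course was used as a block because each rate was read against 0 min of its own course. The difference of the replicates at 0 min correlated with that at 20 min by 0.024 (overexpression) and with that at 45 min by 0.046 (knockdown) in rate, and by 0.077 and 0.262 in level, over 7106 genes.

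Members, gene lists and tests were chosen with earlier results of these data known. Named were called genes at 20 CPM or more with the same sign in all 5 libraries, and a fixed list of long- and short-lived messages. CXCL3, DUSP6, HBEGF, KLF2, PHLDA1, ATF3, FOSB, IL6, NR4A1, HMGA2, IL11, PLK2, SGK1 and GADD45B were chosen after their values were seen. T bases counted on hg38 matched the files in all 9279 intervals looked up.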

Additional observations from a re-analysis of the deposited data

Results flagged for a closer look

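RPLP1, a ribosomal protein message, moved in opposite directions in the lines at 45 and 90 min. Its mean log2 ratio to 0 min was 0.04 in the overexpression courses and -0.09 in the knockdown courses, every library of each line lying on its own side, a difference (knockdown minus overexpression) of -0.13. Tested directly in edgeR's fit over all genes, the difference did not pass (unadjusted p = 0.278, adjusted p = 0.9995).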

How the results depend on the processing

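Genes called higher at 10 and 20 min went from 0 to 1 (EGR1) without the 10 min libraries and without the 2 libraries that stood apart. For 45 and 90 min over 0 min, 7 genes called lower became 0 with limma, 0 relative to the median gene, 4 with reads carrying a conversion over reads, 1 without the 90 min libraries, 13 with a slope per h and 13 without the 2 libraries that stood apart. With no replicate block there were 5, all among the 7. Leaving out a course gave 0 to 7. Genes called higher went from 0 to 1 (EGR1) with sums per course and window, without the 10 min libraries and without the 2 libraries that stood apart.

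For 45 and 90 over 10 and 20 min, 2 genes lower became 1 with background-subtracted conversions or at 10 CPM or more, 8 relative to the median gene, 6 without the 45 min libraries and 5 with DESeq2, which also called 9 higher. They became 0 with limma, with reads carrying a conversion, with sums per course and window, without the 10, 20 or 90 min libraries and without the 2 libraries that stood apart. Leaving out a course gave 0 to 3. The line difference had 0 calls under every alternative run.

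For read level, 10 genes higher became 30 with DESeq2, 56 with no filter, 54 with a slope per h (1 gene lower in each of these 3) 16 with sums per course and window and 13 without the 2 libraries that stood apart. With no replicate block there were again 10, of which 8 were the same genes. Leaving out a course gave 4 to 14. For labelled amount, 1 gene higher became 2 with no replicate block, 5 with DESeq2, 4 with a slope per h and 3 without the 2 libraries that stood apart, the last 3 with 1 gene lower each. Leaving out a course gave 1 to 2, without FOS where knockdown replicate 2 was left out. The library-wide rate at 10 and 20 min was 90.6% of 0 min by the median over genes (course left out, 92.4% to 96.7%), and that at 45 and 90 min was 96.0% to 97.3% with a course left out. Of 267 values for 17 results of 15 named genes under these alternatives none changed direction, and 84 lost the call. The cause of these moves was not tested.

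Depth limits what can be said of messages under 10 CPM, whose rates rest on few conversions, and of EGR1 and FOS at 0 min.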
